A study of Arabidopsis thaliana with 6 samples.

Results

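Among the regions bound by the WUS-GR fusion protein in Arabidopsis thaliana seedlings, 818 of 10087 (8.11%, 95% Wilson interval 7.59 to 8.66) had midpoints at 3' ends of protein-coding genes. These midpoints lay outside the promoters of protein-coding genes, while long regions could still reach into them. To obtain this set, touching windows of the WUS-GR list were merged. A region was kept if its midpoint fell in a 3' UTR (224 regions) or within 1000 bp past the end of a protein-coding gene (594 regions, called downstream regions). Its midpoint also had to lie outside every other gene body and not within 2500 bp upstream of any protein-coding transcription start site (TSS). Before this last condition, 2424 regions sat at a 3' end by midpoint, and 1606 of them were left out because they were also upstream of a TSS. The 818 regions are called 3' end regions here, and the 777 genes they belong to are called host genes.

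WUSCHEL (WUS) is a homeodomain transcription factor that keeps the stem cells of the shoot apical meristem undifferentiated, and it can both repress and activate its targets. Binding of plant transcription factors is usually described at promoters, just upstream of the TSS. The DNA past a gene end holds signals for cleavage and polyadenylation and, where genes converge, is shared by the ends of a pair of genes. Acetylation of lysines 9 and 14 of histone H3 (H3K9/K14ac) marks active genes and is concentrated at their 5' ends. Trimethylation of lysine 27 of histone H3 (H3K27me3) is deposited by Polycomb complexes over silent genes, often along the whole transcribed unit.

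Chromatin immunoprecipitation followed by sequencing was carried out on whole seedlings, 5 days old, of a line carrying the transgene pUBI10::mCherry-GR-linker-WUS (WUS-GR) and of Col-0, the wild type without a transgene. Both genotypes had been treated with 25 µM dexamethasone for 2 h according to the labels, which lets the glucocorticoid receptor (GR) part bring the fusion protein into the nucleus. The ubiquitin promoter drives the fusion in all tissues, so binding was measured mostly in cells that do not normally make WUS. Chromatin was precipitated with RFP-trap, which binds mCherry, or with antibodies to H3K9/K14ac or H3K27me3, which gave 6 groups with 1 list each. DNA from several precipitations was pooled, the lists do not separate the libraries, and they hold positions without read counts. The depth behind each region is therefore unknown, there is no replicate error and no test, and the intervals given below cover counting error only.

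The list of windows with the higher RFP-trap signal in Col-0 was first put through the same rule. Of the 580.0 merged Col-0 RFP-trap regions, 25 (4.31%, 2.94 to 6.29) met it, 11 in 3' UTRs and 14 downstream. Their median length was 100 bp, which is a single window, and the longest was 400 bp. Not 1 of the 818 WUS-GR 3' end regions overlapped a Col-0 region. This was set by the comparison, since each list holds windows where that genotype had the higher signal. The Col-0 list is therefore no measure of background at these regions.

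To ask how densely gene ends were bound, regions were set against the bases of the genome that meet the positional rule. These bases make up 6.25% of the genome, 2.67% in 3' UTRs and 3.58% downstream. Downstream sequence held 13.9 regions per 100 kb and 3' UTR sequence 7.04, beside 8.47 for the whole genome. Intergenic sequence within 2500 bp upstream of a TSS held 20.2 per 100 kb, and protein-coding gene bodies held 4.74. DNA past the gene end was thus bound more densely than the genome average and less densely than promoters, whereas 3' UTRs lay below the average. The density over both kinds of sequence differed little between chromosomes, from 9.76 per 100 kb on chromosome 2 to 11.8 on chromosome 1.

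The same contrast was seen base by base. Within bases that meet the rule, WUS-GR regions covered 2.96% at 150 bp before the gene end and 3.48% at 50 bp before it. They covered 4.37% in the first 100 bp past the end and 5.86% at 150 bp past it. Coverage reached 7.15% at 450 bp past the end and was still 6.61% at 950 bp. Col-0 regions, where Col-0 had the higher signal, covered no more than 0.105% in any bin. Around all protein-coding gene ends, promoters of neighbouring genes included, WUS-GR coverage had its maximum of 5.02% at 250 bp past the end. It then fell to 3.64% at 950 bp. The coverage curve of bases that meet the rule thus had no narrow summit at the gene end itself. It rose gradually across the end and then stayed nearly level, unlike the curve of all gene ends. Bases that meet the rule numbered 716929 in the first bin past the end and 271563 in the last, so the far bins rest on fewer bases.

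**Figure D1:**
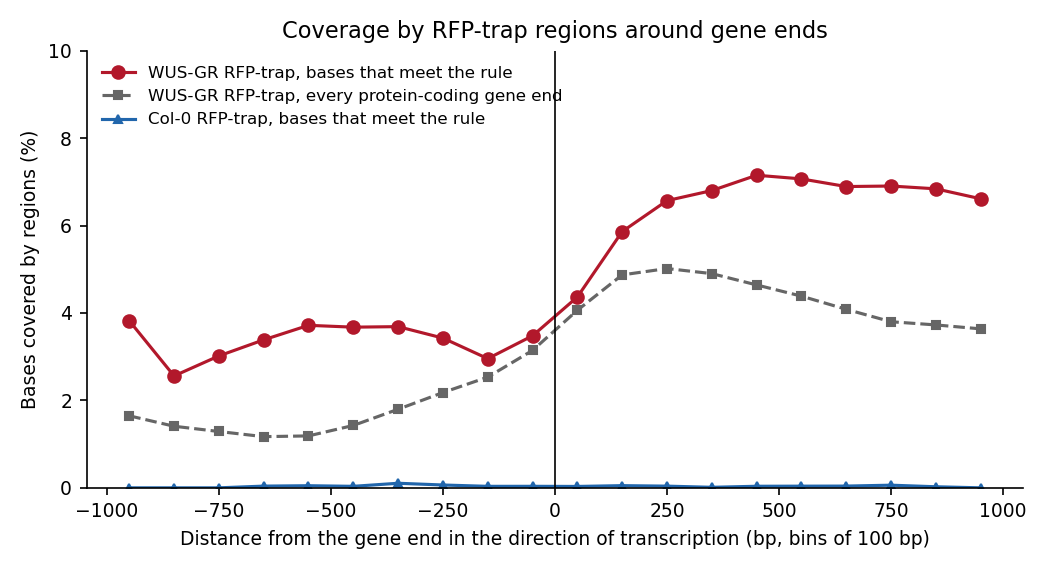
Percentage of bases covered by RFP-trap regions (y axis) in bins of 100 bp around the end of protein-coding genes (x axis, distance in bp in the direction of transcription). Coverage by WUS-GR regions of bases that meet the rule (circles) is between 2.56% and 3.82% inside the gene and reaches 7.15% at 450 bp past the end. Coverage by Col-0 regions (triangles), where Col-0 had the higher signal, stays at or below 0.105%.

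The 3' end regions were of the size of promoter regions. Their median length was 400 bp (quartiles 300 and 600), the same median as for upstream regions, and 300 bp for regions in gene bodies and for all WUS-GR regions together. Lengths ran from 100 to 2700 bp. 56 regions (6.85%) consisted of a single 100 bp window, which is the least support a region can have in these lists, and 64 (7.82%) were at least 1000 bp long. Together they covered 373.8 kb. The median GC content of their central 200 bp was 34.5% (quartiles 31.5 and 37.5), beside 32% for tiles of the same size cut from all sequence that meets the rule and 35.5% for all WUS-GR regions.

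Downstream midpoints lay from 2 to 998 bp past the gene end with a median of 389.5 bp, with quartiles at 191.5 and 628.8 bp. Positions inside the gene are given with a minus sign, and midpoints in 3' UTRs had their median at -229.5 bp. The end was taken as the outermost base of the annotated gene, so that a few 3' UTRs of short transcripts lay far inside it, the farthest at -5359 bp in AT3G14840. Of the 224 midpoints in 3' UTRs, 11 lay in coding sequence of another transcript of the same gene. The gene end itself was spanned by 259 regions, 92 of the 3' UTR and 167 of the downstream class. At the 1000 bp limit, the last members were at AT1G25550 (995 bp), YUC4 (997 bp) and AT2G22760 (998 bp), and the nearest regions left out were at AT3G24640 (1002 bp), AT1G63840 (1003 bp) and KRP2 (1005 bp). At the 2500 bp limit, the members closest to a promoter had their nearest TSS at 2504, 2507 and 2508 bp, and the nearest regions left out had it at 2500, 2496 and 2488 bp.

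**Figure D2:**
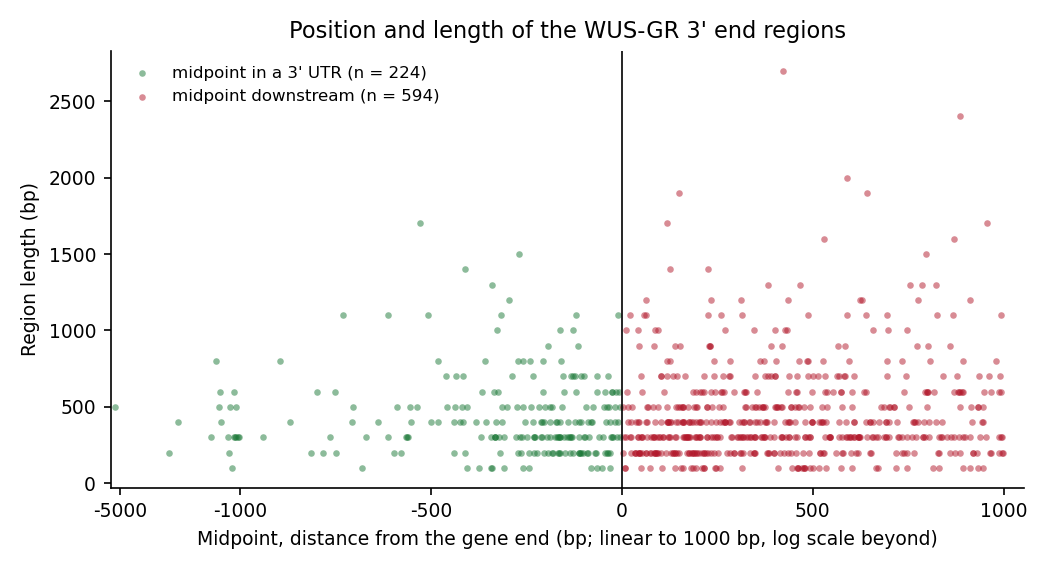
Length of each of the 818 3' end regions in bp (y axis) against the distance of its midpoint from the gene end in bp (x axis, linear to 1000 bp and logarithmic beyond). The 224 regions with midpoints in 3' UTRs gather close to the gene end, with a median at -229.5 bp, while the 594 downstream regions spread over the whole 1000 bp, and lengths run from 100 to 2700 bp in all.

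The neighbourhood of the host genes was described next. The next protein-coding gene past the host's end was on the opposite strand, so that both genes converge, for 497 regions (60.8%). It was on the same strand, so that its promoter faces the host's end, for 321. Convergent neighbours made up 66.5% for 3' UTR regions and 58.6% for downstream regions, beside 47.4% over all protein-coding genes. Part of this difference is built into the rule, which leaves out sequence upstream of a TSS and thereby the intergenic space of closely spaced tandem genes. The intergenic gaps were wide. The median gap between converging genes was 1566 bp at the 3' end regions and 97 bp over all converging pairs, and between tandem genes it was 4336 bp beside 796 bp. Downstream midpoints had to lie outside gene bodies and more than 2500 bp before the TSS of a tandem neighbour. Wide gaps, those between tandem genes above all, were thus partly built into the rule. What else the gap widths follow from was not tested. For 123 regions, at least 2 protein-coding genes ended within 1000 bp of the midpoint, so that the host was the nearer of these genes by rule. Bodies of genes that do not code for protein counted as other gene bodies, but their starts were not part of the 2500 bp condition. Within 2500 bp upstream of the start of such a gene or pseudogene lay 140 regions. In 35 regions, sequence away from the midpoint overlapped one.

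To describe the DNA under these regions, sequence words were searched on both strands in the central 200 bp of each region. CACGTG is the G-box, a site for basic helix-loop-helix (bHLH) and basic leucine zipper (bZIP) factors, and TCACGTGA is the same word with 1 more base on either side. CACGTG was found in 103 regions (12.6%, 10.5 to 15.0). It was found in 14.6% of all WUS-GR regions and in 1.92% of 37302 tiles of 200 bp that meet the rule. Among 1991 words of 6 bases that occurred in at least 10 of the regions, CACGTG had the highest ratio to the tiles, 6.57-fold. GGGCCC (5.91-fold, in 21 regions) and CACGCG (5.81-fold, in 41 regions) came next. TCACGTGA was found in 1.34% of the central stretches, beside 1.44% of all WUS-GR regions and 0.222% of the tiles. Over the whole length of the regions 22 of them held it, and in 11 it was within the central 200 bp.

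Sites with TCACGTGA are printed for 8 of the 22 regions that held it. They carry the extended form of the word by which the 3' end regions differed most from other sequence at gene ends. Each stretch has 30 bases and is written 5' to 3' on the strand of the host gene from the TAIR10.1 assembly (RefSeq), with the word in capitals.
SMT2: ttctctttaatTCACGTGAttctctcttag
EXO: cgcgtgatgggTCACGTGAtcatccttagg
BZIP34: cttaagcttatTCACGTGAtgtgttccttg
AT2G40620: ttggatagaccTCACGTGAcctttttgtgg
NCED4: gggatcaagttTCACGTGAgatgggtgaga
HAT22: tgggacatgctTCACGTGAttttctcttca
AGP9: gagtgctgtagTCACGTGActttgtcagtc
CRF1: cacgtgttgtcTCACGTGAcgaggaatcac

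SMT2, which encodes a sterol methyltransferase of the brassinosteroid and membrane sterol pathway, held the site at chr1:7038399-7038428, 114 bp past its end and 13 bp from the middle of an 800 bp region. At EXO, which is needed for brassinosteroid-promoted growth, it lay at chr4:5742067-5742096, 491 bp past the end and 31 bp from the region's middle. BZIP34 and AT2G40620 both encode bZIP factors, the class of protein that can bind this word. The site of BZIP34 was at chr2:17646242-17646271, 601 bp past the gene and 6 bp from the middle of the region, and that of AT2G40620 at chr2:16953825-16953854, 579 bp past the gene and 61 bp from the middle. At NCED4, a carotenoid cleavage enzyme gene, the site at chr4:10484468-10484497 was 604 bp past the end and 232 bp from the middle of the region. At HAT22, a homeodomain leucine zipper gene, chr4:17770712-17770741 was 1051 bp past the end and 276 bp from the middle. Inside genes, the site lay 721 bp before the end of the arabinogalactan protein gene AGP9 (chr2:6400413-6400442), 27 bp from the middle. At the cytokinin response factor gene CRF1 (chr4:6794611-6794640) the midpoint of the region was in the 3' UTR, 170 bp before the gene end. The word lay 5 bp past that end and 175 bp from the midpoint.

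Words described for WUS and for auxin response were less distinct. TTAATSS (S is C or G), which resembles the TAAT core bound by homeodomains, occurred in 10.8% of the central stretches and in 10.5% of the tiles. TGAATGAA, another word described for WUS, occurred in 3.42% (2.38 to 4.90) of them, beside 2.87% of all WUS-GR regions and 1.87% of the tiles. TGTCTC, an auxin response element, occurred in 15.8% (13.4 to 18.4), beside 13.6% of all regions and 9.86% of the tiles, and TGTCGG in 5.62% beside 5.88% and 2.67%. GAGAGAGA repeats occurred in 5.62% (4.24 to 7.42) of the 3' end regions, beside 2.35% of the tiles. This was close to the 5.34% of upstream regions, while 18.2% of regions in gene bodies held them. AAACCCTA occurred in 1.59%, beside 1.97% of the tiles. A match gives the presence of the letters only and is not a measured binding site.

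To find out whether histone modifications differed at the 3' end regions, they were overlapped with regions in which Col-0 (lost) or WUS-GR (gained) had the higher signal of a mark. Where a gained and a lost region of 1 mark lay less than 73 bp apart, both had been removed. Lost H3K9/K14ac overlapped 29 3' end regions by at least 1 bp (3.55%, 2.48 to 5.05), beside 4.98% of all WUS-GR regions. Gained H3K9/K14ac overlapped 19 (2.32%, 1.49 to 3.60), beside 3.79%. Lost H3K27me3 overlapped 15 (1.83%, 1.11 to 3.00), beside 1.72%. Gained H3K27me3 overlapped 0 of them, which allows a share of up to 0.367% (3 counts of 818), beside 0.347% of all regions. In total 757 of the 818 regions overlapped no changed histone region, and 61 overlapped at least 1. The share of all regions lay above the interval for gained acetylation and within the interval for lost acetylation and lost H3K27me3.

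The classes differed in gained acetylation. It overlapped 14 of 224 3' UTR regions (6.25%, 3.76 to 10.2) and 5 of 594 downstream regions (0.842%, 0.360 to 1.96), and these intervals did not overlap. The sequence itself differed in the same way, since gained regions covered 2.82% of the 3' UTR bases that meet the rule and 0.731% of the downstream bases. Lost acetylation overlapped 4.91% of 3' UTR and 3.03% of downstream regions, where 2.75% and 1.33% of the bases were covered. Lost H3K27me3 overlapped 9 3' UTR regions (4.02%, 2.13 to 7.46) and 6 downstream regions (1.01%, 0.464 to 2.19), and these intervals overlapped. BLH2 held 2 of the former and DAD1 2 of the latter, each pair on the same lost region. As a share of bases and not of regions, lost H3K27me3 covered 1.62% in 3' UTRs and 2.35% downstream. Regions in gene bodies had the highest acetylation shares, 8.58% for loss and 6.89% for gain, and upstream regions had 3.79% and 2.92%.

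**Figure D3:**
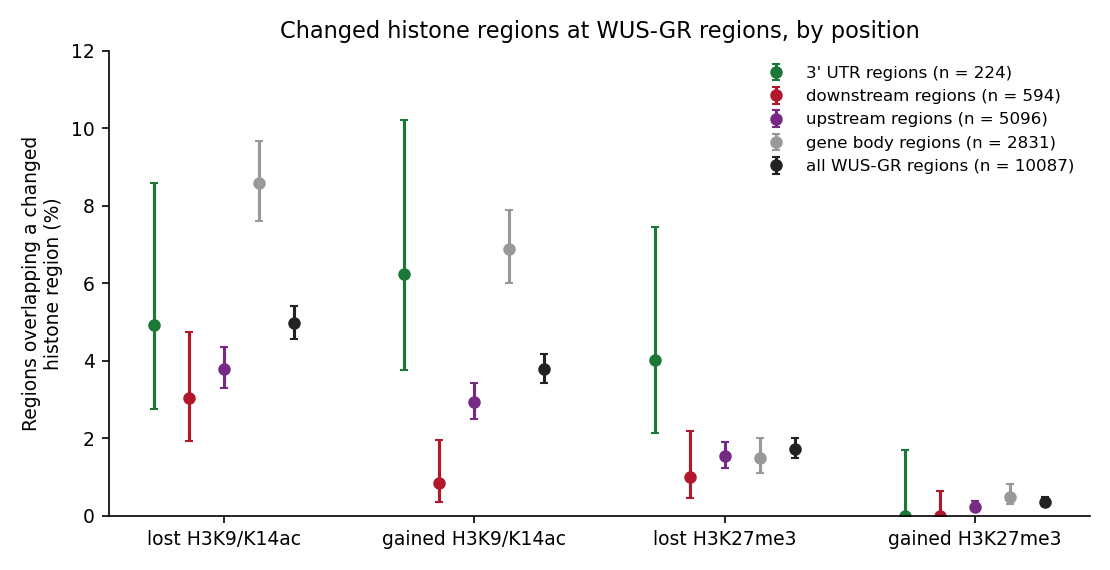
Percentage of WUS-GR regions that overlap a changed histone region by at least 1 bp (y axis) for the 4 kinds of change (x axis), by position of the region. Points are shares and bars 95% Wilson intervals, which cover counting error only. Gained H3K9/K14ac overlaps 6.25% of 3' UTR regions and 0.842% of downstream regions, and gained H3K27me3 overlaps 0 regions of either class.

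A wider window gave larger counts with the same order. Within 1000 bp of the region, lost H3K9/K14ac was found at 146 3' end regions (17.8%) beside 18.5% of all WUS-GR regions. Gained H3K9/K14ac was found at 113 (13.8%) beside 16.5%, lost H3K27me3 at 66 (8.07%) beside 6.98%, and gained H3K27me3 at 14 (1.71%) beside 1.58%. Most histone changes near a 3' end region therefore lay beside it and not under it.

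The 29 regions with lost acetylation shared between 100 and 500 bp with the histone region, with a median of 300 bp. 5 of them shared 500 bp. At PFK4, which encodes a phosphofructokinase of glycolysis, a 500 bp region (chr5:24763901-24764400) spanned the gene end and lay wholly within a 2000 bp stretch of lost acetylation. That stretch ran from -1167 bp to 832 bp past the end, into the converging gene AT5G61590, whose own end lay 88 bp away. At SAG20, a senescence-associated gene, a 1700 bp region covered most of the 1444 bp gene from -1379 bp to 320 bp past its end, and lost acetylation lay under 500 bp of it. At AT5G57710, which encodes a Clp-type ATPase-like protein of the family of strigolactone and karrikin signalling repressors, a 1200 bp region 435 bp past the end overlapped 500 bp. The other hosts with 500 bp were AT1G09250, a bHLH gene that carried the longest 3' end region of all, and AT4G38650, a glycosyl hydrolase gene. Shorter overlaps included the very-long-chain fatty acid synthase gene KCS1 (200 bp), the jasmonate repressor gene TIFY7 (100 bp), the stomatal density peptide gene EPF2 (200 bp), the proteasome subunit gene RPN10 (200 bp) and the senescence regulator NAC6 (100 bp).

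The 19 regions with gained acetylation included 14 in 3' UTRs. The longest overlap, 600 bp, was at the peroxidase gene PRXR1, where a 1300 bp region reached from -991 bp to 308 bp past the gene end and a second 3' end region of 300 bp followed at 509 bp. PG2, a polygalacturonase gene of cell wall remodelling, shared 500 bp within a 1500 bp region. Further hosts were the ammonium transporter gene AMT1;2 (200 bp), the very-long-chain fatty acid synthase gene KCS9 (200 bp), the uncoupling protein gene UCP5 (200 bp) and the response regulator-like gene APRR2 (300 bp). LHCB4.1, a photosystem antenna gene, had its region centred 2 bp past the end and shared 200 bp, and LBD37, a repressor of nitrogen-responsive genes, had it at 16 bp and shared 100 bp.

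The 15 regions with lost H3K27me3 lay at 13 genes, since DAD1 and BLH2 had 2 each. DAD1 encodes a lipase of jasmonate synthesis in anthers. A 1500 bp stretch of lost H3K27me3 there ran from -456 bp to 1043 bp past the gene end, covering a region centred 93 bp past the end wholly and 200 bp of another at 993 bp. A gained H3K27me3 region of 500 bp lay in the body of the same gene. BLH2, a BEL1-like homeodomain gene that limits growth of the leaf margin, had regions at -1061 and -561 bp in its 3' UTR over either edge of a 500 bp lost region. The largest overlaps, 500 bp, were at AT4G28085, whose protein is uncharacterised, and at BAT1. BAT1 encodes an acyltransferase that acts on brassinosteroids, and its 600 bp region reached 94 bp past the gene end into the converging gene RR10, a cytokinin response regulator that ends 46 bp away. HAT14, a homeodomain leucine zipper gene, shared 300 bp, and AT4G32800, an AP2-domain factor gene, 200 bp. AT1G49450 and AT1G80450 were the 2 genes whose regions overlapped both lost H3K27me3 and gained H3K9/K14ac, by 100 bp each.

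**Figure D4:**
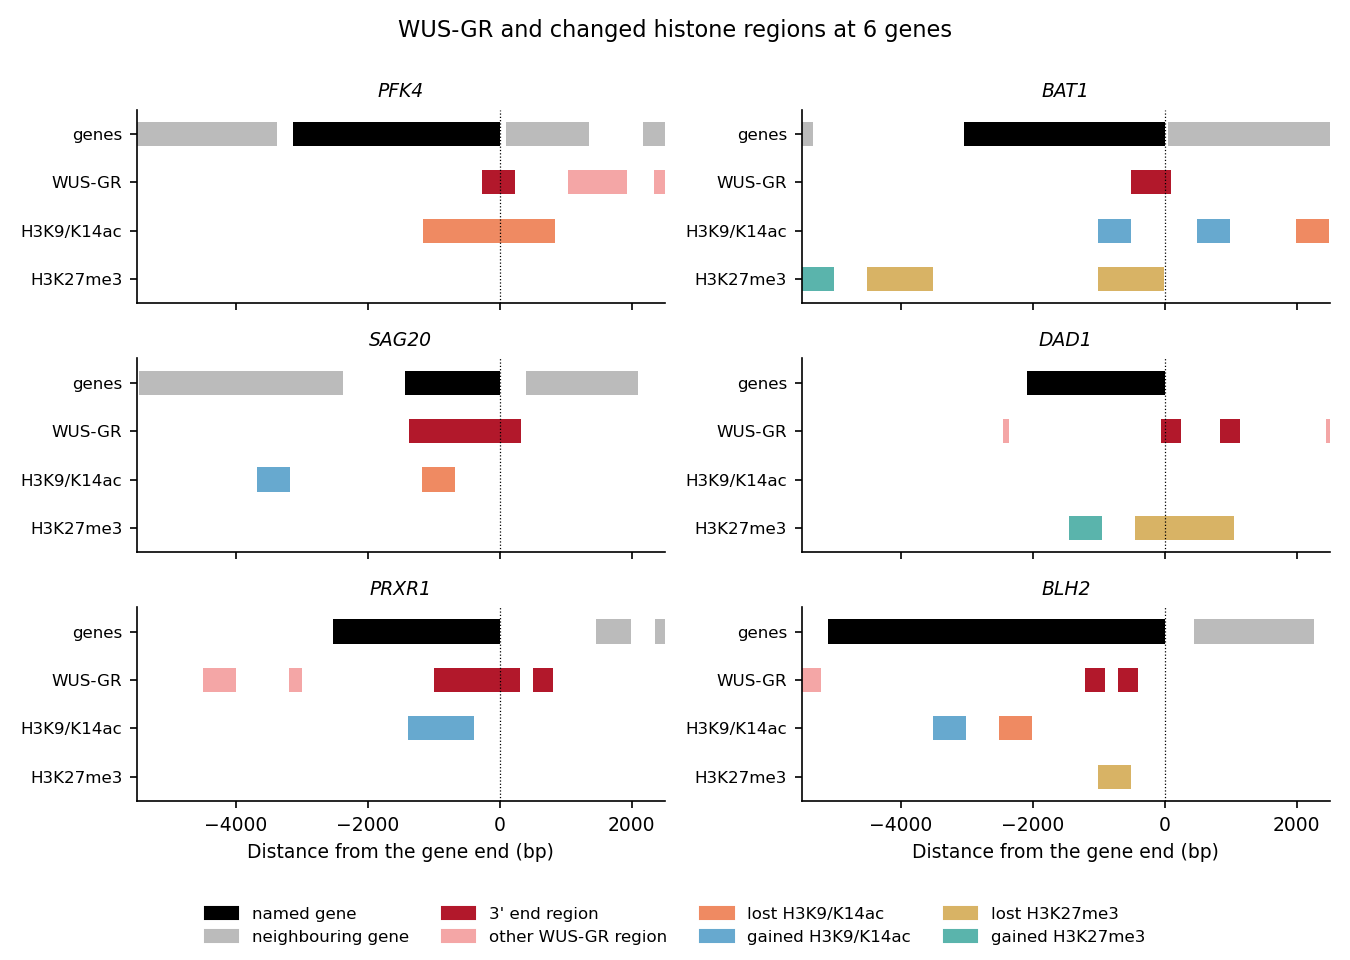
Maps of 6 host genes with distance from the gene end in bp (x axis, negative inside the gene) and rows for genes, WUS-GR regions, changed H3K9/K14ac and changed H3K27me3, all to scale. PFK4 and SAG20 have lost acetylation under the 3' end region, PRXR1 has gained acetylation, and BAT1, DAD1 and BLH2 have lost H3K27me3, with 500 bp shared at PFK4, SAG20 and BAT1 and 600 bp at PRXR1.

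To see whether 3' end binding came alone, the window of each host gene was searched for further regions. The window was the gene body with 2500 bp upstream and 1000 bp downstream. Of the 777 host genes, which are 2.83% of 27444 protein-coding genes, 492 (63.3%, 59.9 to 66.6) had at least 1 more WUS-GR region, and 285 (36.7%) had the 3' end region only. An upstream region was present at 386 hosts (49.7%, 46.2 to 53.2), beside 25.7% of all protein-coding genes and 71.9% of genes with a WUS-GR region that were not hosts. A region in the gene body other than the host's own 3' end regions was present at 199 (25.6%), beside a body region at 10.1% of all protein-coding genes and 26.0% of bound genes that were not hosts. Of the latter, 32.5% had 2 or more regions in the window. Hosts thus had a bound promoter more often than all genes and less often than other bound genes, which is partly built in. Shares at other bound genes are raised by the grouping. Those genes qualify through any region in the window, whereas hosts already qualify by their 3' end region. Host genes had a median length of 2269 bp, beside 2285 bp for all genes with a region and 2078 bp for all protein-coding genes. At 38 hosts there was more than 1 3' end region, and MYB47, AT5G14700 and AT5G59050 had 3 each.

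Histone changes in the same gene windows were close to those at all genes with a WUS-GR region, apart from gained H3K9/K14ac, which was less frequent at hosts. Lost H3K9/K14ac was present at 251 hosts (32.3%, 29.1 to 35.7), beside 26.5% of all protein-coding genes and 32.0% of genes with a WUS-GR region. Gained H3K9/K14ac was present at 241 (31.0%, 27.9 to 34.4), beside 30.4% and 35.6%. Lost H3K27me3 was present at 84 (10.8%, 8.82 to 13.2), beside 12.3% and 11.5%, and gained H3K27me3 at 23 (2.96%, 1.98 to 4.40), beside 3.44% and 3.01%. Hosts were thus near the level of all bound genes for both losses and for gained H3K27me3, and near that of all genes for gained acetylation.

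The 10 longest 3' end regions measured from 1600 to 2700 bp. The longest, at AT1G09250 (chr1:2989501-2992200), reached from inside the gene into the 2953 bp before the next gene, AT1G09260. Its midpoint lay 2531 bp before that gene, which is on the same strand, so the region reached into the 2500 bp upstream of its TSS. AT1G69526, a methyltransferase gene, had a 2400 bp region (chr1:26133001-26135400) in the 8412 bp before the expansin gene EXPA1, whose promoter window it did not reach. The potassium channel gene KT2/3 followed with 2000 bp. The midpoint there was 2582 bp before the next gene on the same strand, so this region also reached into the 2500 bp upstream of a TSS. The VQ protein gene AT1G28280 and the aquaporin gene PIP3 had 1900 bp each. PATL1, which encodes a membrane trafficking protein of the cell plate, and AT1G78070 had 1700 bp. SAG20, with 1700 bp, was the only one of the 10 with its midpoint in a 3' UTR. XTH7, a xyloglucan endotransglucosylase gene of wall loosening, had 1600 bp and converges on HAT22 across 5693 bp. HAT22 had a 900 bp region of its own, so that both ends of this gap were bound. AT2G28200, a C2H2 zinc finger gene, had 1600 bp.

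Genes of the auxin pathway were looked up, as the hormone that WUS activity is set against in the meristem. Of 173 genes in the auxin list, 12 were hosts (6.94%), beside 2.83% of all protein-coding genes. The list was bound more often at any position, with 113 genes (65.3%) having a region in the window beside 36.6% of all genes. Hosts made up 10.6% of its bound genes and 7.73% of all bound genes. The 13 regions of these hosts had a median length of 400 bp, and 6 lay in 3' UTRs and 7 downstream. Over their whole length, 0 of the 13 held CACGTG, beside 20.7% of all 3' end regions.

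The 12 hosts included genes of synthesis, transport, perception and response. For synthesis, the YUC flavin monooxygenase genes were bound at YUC6 (800 bp region in the 3' UTR at -159 bp), YUC2 (200 bp region at 887 bp) and YUC4 (300 bp region at 997 bp). The region at YUC2 was the only one in the window of that gene. For transport, the efflux carrier genes PIN4 and PIN7 and the influx carrier gene AUX1 were bound in 3' UTRs of shorter transcripts, at -1017, -1311 and -1080 bp from the outer gene end. For perception and response, the receptor gene AFB5 had a 500 bp region at 147 bp past the end. The activator gene ARF6 had 400 bp regions at 122 and 822 bp. The repressor genes IAA7 and IAA14 had regions of 200 and 300 bp in the 3' UTR at -161 and -28 bp. WES1, a GH3 gene that conjugates auxin to amino acids, had a 700 bp region at 565 bp and 3 regions upstream. The growth gene SAUR36 had a 400 bp region at 161 bp. Lost acetylation lay in the window of 2 of the 12 (PIN4 and ARF6), gained acetylation in 3 (PIN4, ARF6 and AFB5), lost H3K27me3 in 4 (YUC6, IAA7, AUX1 and SAUR36), and gained H3K27me3 in 1 (PIN4). Over all protein-coding genes these shares were 26.5%, 30.4%, 12.3% and 3.44%.

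Of 72 genes in the list of meristem and organ polarity regulators, 7 were hosts (9.72%) beside 2.83% of all protein-coding genes, and 48 (66.7%) had a region at any position beside 36.6%. Hosts made up 14.6% of the bound genes of this list and 7.73% of all bound genes. The KANADI genes, which specify the lower side of leaves, were bound at KAN2 (500 bp at 266 bp past the end, chr1:11625101-11625600) and at KAN3 (200 bp at 133 bp). WOX1, a relative of WUS that acts at the leaf margin, had a 1200 bp region spanning its end, centred 233 bp past it. HAM3, a GRAS factor gene of a family that works with WUS in the meristem, had a 1100 bp region at 590 bp with CACGTG in it. CUC3, a boundary gene, had a single 100 bp window at 256 bp, which was the only region in its window. KNAT4 had 700 bp at 609 bp, and BLH2 had the 2 regions described above. All but HAM3 converge with the next gene. Lost H3K9/K14ac lay in the window of BLH2 and WOX1, gained H3K9/K14ac in that of BLH2 and KAN3, and lost H3K27me3 in those of BLH2, WOX1 and KAN3, which is 2, 2 and 3 of 7 hosts beside 26.5%, 30.4% and 12.3% of all protein-coding genes.

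**Figure D5:**
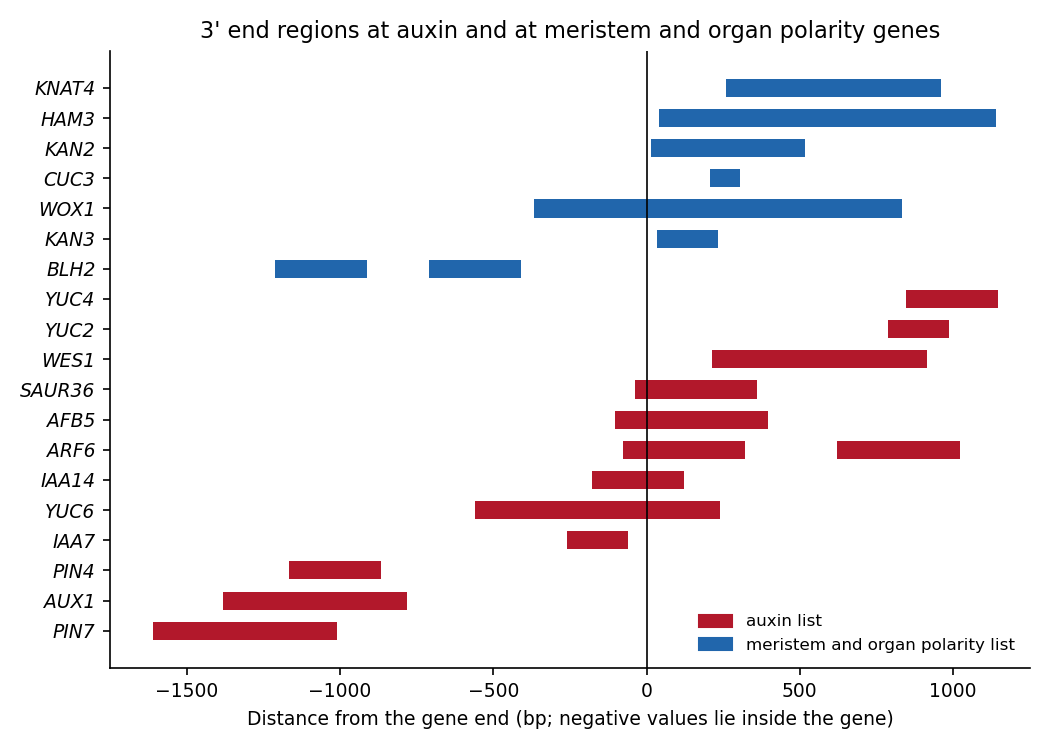
3' end regions at the 12 auxin genes and the 7 meristem and organ polarity genes that were hosts, drawn to scale as bars over the distance from the gene end in bp (x axis). Regions at PIN7, AUX1, PIN4, IAA7 and BLH2 lie inside the gene, those at WOX1, YUC6, IAA14, ARF6, AFB5 and SAUR36 span its end, and ARF6 and BLH2 have 2 regions each.

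Lists of other regulators were then counted. Of 24 cytokinin response regulator genes, 0 were hosts, beside 2.83% of all protein-coding genes, and 10 (41.7%) had a WUS-GR region in the window, beside 36.6%. Of 32 light and clock genes, 25 (78.1%) had a region in the window, beside 36.6%. Only 1 of them, APRR2, was a host (3.12%), near the 2.83% of all protein-coding genes. Among genes listed under 7 transcription factor families, 34 were hosts with 41 regions, 33 of them downstream. ERF and DREB genes were hosts in 7 of 45 cases (15.6%), TCP genes in 3 of 23 (13.0%), bZIP genes in 4 of 40 (10.0%), NAC genes in 8 of 100 (8.00%), WRKY genes in 4 of 71 (5.63%), MYB genes in 7 of 126 (5.56%) and bHLH genes in 1 of 22 (4.55%), beside 2.83% of all protein-coding genes. The lists were drawn up by symbol or synonym, so they are partial, and hosts such as AT1G09250, AT2G22760 and CRF1 belong to these families without being in a list. The hosts in the ERF and DREB list include RAP2.4 and RAP2.7, whose symbols and synonyms carry neither of these names. The listed genes of these 7 families also had a region at any position in the window, 3' end regions included, more often than the 36.6% of all genes. Their shares ran from 42.5% (bZIP) to 77.8% (ERF and DREB).

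Several of these genes had their end bound more than once. MYB47 had 3 regions, at -213, 337 and 987 bp, the first of which overlapped 100 bp of lost acetylation. ERF12, a gene for a repressor of the ethylene response factor family, had a 400 bp region inside the gene at -205 bp and a 600 bp region at 895 bp in the gap it shares with ERF11. ERF9 had 2 single windows at 9 and 409 bp and no other region. TCP14, a growth regulator gene, had 800 bp in its 3' UTR at -359 bp and 600 bp at 641 bp. NAC076, a xylem vessel regulator, had regions at 345 and 895 bp, and RAP2.7, a repressor of flowering, had 200 bp regions at -44 and 456 bp. WRKY11 carried the longest region among the genes of these lists, 1400 bp in its 3' UTR at -412 bp, and ERF8 the longest downstream one, 1300 bp at 787 bp. At 21 of the 34 genes an upstream region was also present, and 8 had 1 region only. Lost acetylation lay in the window of 7 of them and gained acetylation in that of 9, beside 26.5% and 30.4% of all protein-coding genes.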

How the data were processed

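The authors mapped the reads to TAIR10 with BWA and compared the genotypes with the hidden Markov model tool hiddenDomains. The deposited lists give positions only, in windows of 100 bp (RFP-trap) and 500 bp (histone marks) that passed a posterior threshold, with no score and no depth. A list names the genotype with the higher signal. The 6 lists were mapped to groups by sample title. Touching windows were merged (42402 WUS-GR RFP-trap windows), coordinates are counted from 1, and gained and lost regions of a mark closer than 73 bp were removed, as in the study's methods. Gene models and sequence came from RefSeq TAIR10.1 (37899 genes, 27444 protein-coding). A histone region belonged to a gene by its midpoint. Words were searched on both strands. The study's methods give a lower dexamethasone concentration than the labels, and the design text mentions duplicates, whereas 1 list per group was analysed here. Shares carry 95% Wilson intervals. Calculations used Python 3.11.15, numpy 2.4.6, pandas 2.3.3 and scipy 1.17.1 and were tested on simulated lists. Members, gene lists and words were chosen with earlier results of these data known. Named genes are hosts of the 10 longest regions, of regions with histone changes (up to 10 per change by overlap, and further ones chosen after their values were seen), of TCACGTGA, of the gene lists and of the limits.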

Additional observations from a re-analysis of the deposited data

How the results depend on the processing

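No paired analysis was possible because there was a single list for every group, and no replicate could be left out. Of 82 alternative values for 12 results, 59 stayed within a set limit and 23 did not. The limit was the counting interval of the main value for shares and 1.5 times the main count for the number of regions. For the median length it was the standard deviation of the lengths. The share of 3' end regions was 5.95% with a limit of 500 bp past the gene end and 6.72% when sequence upstream of any annotated gene was left out. Without the 73 bp rule, overlap was 6.36% for lost H3K9/K14ac, 4.52% for gained H3K9/K14ac, 4.52% for lost H3K27me3 and 1.47% for gained H3K27me3, beside 8.25%, 6.83%, 3.93% and 1.95% of all WUS-GR regions, and 48.7% and 48.3% of hosts had lost and gained H3K9/K14ac in the window. With 50% of the region covered, lost and gained H3K9/K14ac overlapped 1.83% and 1.34%, beside 2.885% and 2.478% of all WUS-GR regions. Histone regions 1000 bp or longer overlapped 1.22% and 1.47%, beside 2.23% and 2.10%, while 10.2% and 10.9% of hosts had them in the window. For the host windows, shares over all genes were not computed under these settings. Counting histone regions within 1000 bp gave 17.8%, 13.8%, 8.07% and 1.71% in the order above. CACGTG was in 20.7% of whole regions. Hosts with a further region made up 59.5% with windows up to 500 bp apart joined, 57.2% with regions of at least 300 bp, 68.2% with the 500 bp limit and 26.1% in the gene body alone, which is narrower by construction and counts a second 3' UTR region of the same host as a further one. The other causes were not tested. The number of regions stayed within its wide limit but fell from 818 to 600 with the 500 bp limit and to 624 with regions of at least 300 bp. The median length was 400 bp under every alternative, and the convergent share stayed within its counting interval. Unknown depth limits all shares, since weakly bound gene ends may be missing from the lists.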
